A study of Mus musculus with 6 samples.

Results

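The matrix metalloproteinase (MMP), ADAM, ADAMTS and ADAMTS-like (ADAMTSL) genes were examined in the infarcted mouse heart. Members were all protein-coding genes whose symbol is Mmp, Adam, Adamts or Adamtsl followed by digits, with an added letter allowed. The rule gave 79 genes out of 35498 in the tables. Of these, 22 were MMP, 33 ADAM, 19 ADAMTS and 5 ADAMTSL genes. Mmp1a is annotated as a polymorphic pseudogene and was left out by the rule. Poly-A RNA was sequenced from ventricle below the ligature, 7 days after a myocardial infarct made by LAD ligation (tying off a coronary artery), in C57BL/6J mice aged 8 to 10 weeks. The RUNX1 FB-KO group (n = 3) had the genotype Postn CreER+/-; Runx1 fl, and the CTL group (n = 3) had Postn CreER+/-; Runx1 WT. Both groups carried the recombinase, had an infarct and received tamoxifen diet from surgery until collection, so neither an uninfarcted heart nor a heart without tamoxifen was compared. Postn-CreER acts in cells that use the periostin promoter, chiefly activated fibroblasts, and all other cells of the tissue keep Runx1 and contribute RNA. RUNX1 FB-KO replicate 1 was male and replicates 2 and 3 female, while CTL replicate 1 was female and replicates 2 and 3 male. The labels do not say that each library came from a separate animal, so p-values measure only the spread between these libraries.

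MMPs, ADAMs and ADAMTSs are zinc-dependent endopeptidases that are made as inactive precursors. MMPs cleave collagens and other matrix proteins, ADAMs are membrane proteins that mostly release the outer part of other membrane proteins, and secreted ADAMTS enzymes process procollagen and cleave proteoglycans. ADAMTSL proteins resemble the non-catalytic portion of ADAMTS enzymes, lack protease activity and bind the fibrillin microfibrils of the matrix. After myocardial infarction these enzymes are known for clearing damaged matrix and for remodelling the scar, and fibroblasts, macrophages, neutrophils and heart muscle each make some of them.

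The libraries held 16598561 to 19987279 estimated reads. RUNX1 FB-KO replicate 3 stood apart from the other knockout libraries. Runx1 (ENSMUSG00000022952) was at 17.5, 10.9 and 67.4 CPM (reads scaled to a common library size) in RUNX1 FB-KO replicates 1, 2 and 3, against 96.4, 86.9 and 85.5 CPM in CTL, a log2 fold change of -1.48 (SE 0.63, edgeR adjusted p = 0.154), or -2.61 without replicate 3 (edgeR adjusted p = 0.000142). The share of reads from mitochondrially encoded genes was 24.49%, 19.61% and 10.37% in RUNX1 FB-KO replicates 1, 2 and 3, against 5.36% to 7.11% in CTL. Markers of heart muscle were present in every library, and no marker of the lists was at 0 in all libraries. The 10 cardiomyocyte markers summed to 74760, 93310 and 26670 CPM in RUNX1 FB-KO replicates 1, 2 and 3, against 11010 to 13570 CPM in CTL. The 8 fibroblast markers summed to 8167, 7260 and 19360 CPM in RUNX1 FB-KO, against 22560 to 24610 CPM in CTL. Col1a1 and Col3a1 made up most of this sum. Col1a1 was at 1880, 1959 and 8606 CPM in RUNX1 FB-KO, against 9203 to 11430 CPM in CTL. Col3a1 was at 4730, 3655 and 8776 CPM in RUNX1 FB-KO, against 10320 to 12700 CPM in CTL. Dcn overlapped, with 819, 969 and 895 CPM in RUNX1 FB-KO, against 604 to 1274 CPM in CTL. Of the 8 fibroblast markers, 3 had no overlap between the groups, all lower in RUNX1 FB-KO. Among all genes tested 39% had no overlap, and 18.8% had none and were lower. The 6 markers of activated fibroblasts summed to 896.5, 585.6 and 4328 CPM in RUNX1 FB-KO, against 3917 to 5464 CPM in CTL. The 8 macrophage markers summed to 625.3, 577 and 1362 CPM in RUNX1 FB-KO, against 1396 to 1917 CPM in CTL. In whole tissue, fewer cells of a type and less RNA per cell cannot be told apart.

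Of the 79 members, 47 were expressed at a mean of at least 1 TPM over all 6 libraries, 22 at 10 TPM or more and 4 at 100 TPM or more. TPM counts transcripts relative to all transcripts of a library and corrects for their length, so levels of different genes are compared on it. Expressed members made up 13 of 22 MMP, 13 of 33 ADAM, 16 of 19 ADAMTS and 5 of 5 ADAMTSL genes. The expressed ADAM genes include Adam32, whose mean of 1.18 TPM rests on at most 12 reads in any library. Among the members below 1 TPM, 17 genes had 0 reads in every library, namely 13 ADAM and 4 MMP genes. The 4 MMP genes were Mmp1b, Mmp7 (matrilysin), Mmp20 (a tooth enamel protease) and Mmp21. The ADAM genes at 0 included Adam7, Adam18 and Adam24, which are known from the male reproductive tract.

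Mmp14, the membrane-anchored collagenase MT1-MMP that also activates the MMP2 precursor, had the highest level. It was at 38.6, 39.9 and 294 TPM in RUNX1 FB-KO replicates 1, 2 and 3, against 441, 331 and 317 TPM in CTL replicates 1, 2 and 3. The next in order were Mmp2 (gelatinase A) with a mean of 202 TPM, Mmp23, a membrane-linked MMP without the hemopexin domain of most others, with 114 TPM, and Adam15 with 105 TPM. The order of Mmp23 and Adam15 held only for the mean over all libraries and for CTL replicates 2 and 3, since Adam15 was above Mmp23 in every RUNX1 FB-KO library and in CTL replicate 1. Adamts2, which removes the amino-terminal propeptide of procollagens, followed with 98.0 TPM, and Adamtsl2 with 92.6 TPM. The means of Mmp14 and Mmp2 did not differ beyond their spread, with 363 ± 67.5 TPM for Mmp14 and 270.0 ± 116 TPM for Mmp2 in CTL (SD, n = 3), and those of Adamts2 and Adamtsl2 also lay within theirs (145 ± 35.5 and 140.0 ± 69.1 TPM in CTL). Adam9, Adamts10, Adamtsl5, Adam10, Adam8 and Mmp12 had means of 71.1, 45.6, 45.2, 44.0, 38.4 and 30.6 TPM. The classical collagenases were low: Mmp13, a main interstitial collagenase of rodents, averaged 0.60 TPM and Mmp8, the neutrophil collagenase, 0.79 TPM. Mmp9, the gelatinase of neutrophils and macrophages, averaged 2.27 TPM and Mmp3, a stromelysin, 5.52 TPM.

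**Figure D1:**
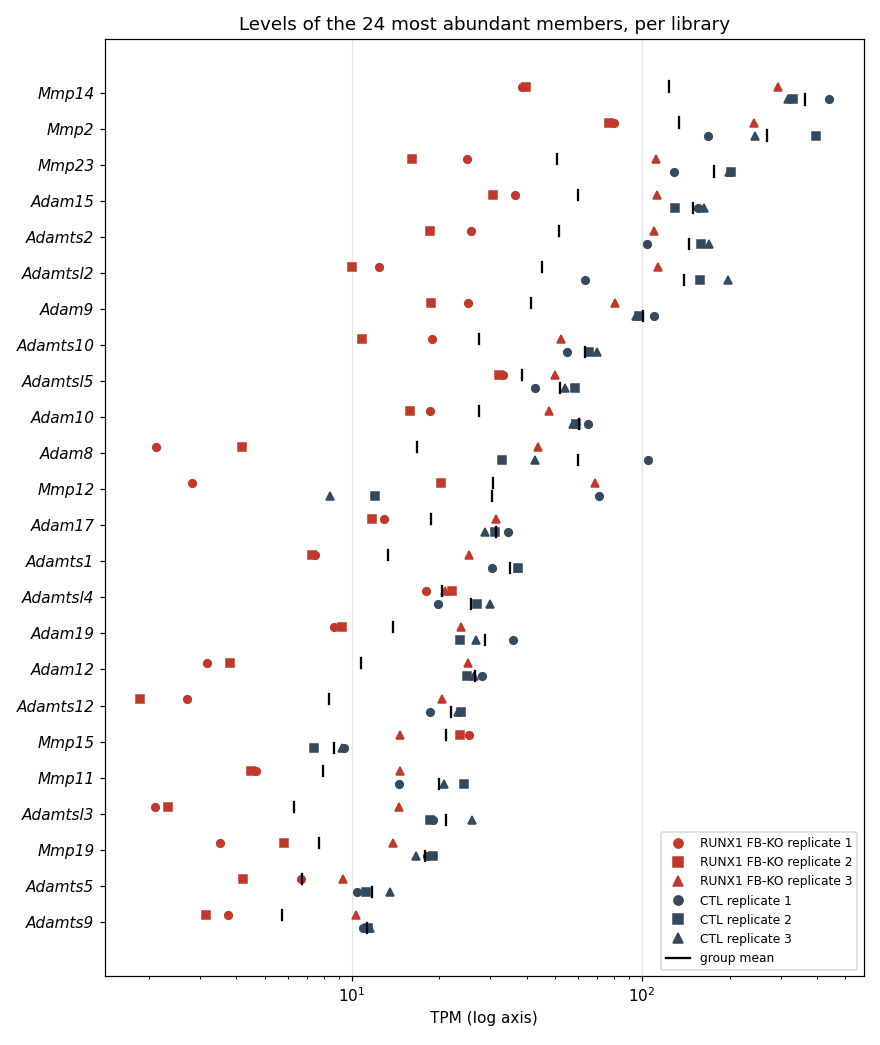
TPM (log axis) of the 24 members with the highest mean over all 6 libraries, with RUNX1 FB-KO above CTL for each gene. Circles, squares and triangles are replicates 1, 2 and 3, and bars are group means; RUNX1 FB-KO replicate 3 lies near the CTL libraries for most genes, as for Mmp14 at 294 TPM.

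Summed over all members, ADAMTSL genes included, these families held 460.1, 429 and 1635 TPM in RUNX1 FB-KO replicates 1, 2 and 3, against 1853, 2069 and 1987 TPM in CTL. MMP genes held 191, 196 and 780 TPM in RUNX1 FB-KO, against 880, 1018 and 840 TPM in CTL, and ADAM genes 120.0, 102 and 380 TPM in RUNX1 FB-KO, against 547, 420 and 458 TPM in CTL. ADAMTS genes held 82.6, 64.0 and 273 TPM in RUNX1 FB-KO, against 280, 366 and 377 TPM in CTL. All knockout libraries lay below all CTL libraries in each of these sums, whereas for ADAMTSL genes RUNX1 FB-KO replicate 3 (202 TPM) lay above CTL replicate 1 (146 TPM). TPM divides by all reads of a library, so it moves with the mitochondrial and heart muscle reads given above, and the comparison between groups was therefore made on CPM scaled by the trimmed mean of M-values (TMM).

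No member was called with all 6 libraries. Of 52 members with enough reads for the test, 0 had an edgeR quasi-likelihood adjusted p under 0.05, and of all 14237 genes tested 0 did (0%). At an unadjusted p under 0.05 there were 12 members, 4 higher and 8 lower in RUNX1 FB-KO, or 23.1% of those tested, against 32.4% of all genes (19.3% higher and 13.1% lower). DESeq2 called 5 members, namely Mmp15, Adam11, Adamtsl5 and Adam22 higher and Adamts6 lower, or 9.62%, against 21.5% of all genes (15.6% higher and 5.9% lower), and limma-voom called 0. At an adjusted p under 0.1, edgeR called 3 members higher and 1 lower, against 16.2% of all genes (12.5% higher and 3.74% lower). Without the filter on low counts edgeR called 1 member, Mmp15, against 4.4% of all genes (4.21% higher and 0.193% lower). The groups did not overlap for 14 members, 4 higher and 10 lower, or 26.9%, against 39% of all genes (20.2% higher and 18.8% lower). Over both directions, the share of members was below that of all genes by unadjusted p, DESeq2 and overlap, and equal to it, at 0%, by the adjusted p of edgeR and limma-voom. For lower values alone the shares depended on the criterion. They were close at an unadjusted p under 0.05 (15.4% of members against 13.1% of all genes) and without overlap (19.2% against 18.8%). The share of members was below that of all genes by DESeq2 (1.92% against 5.9%) and at an edgeR adjusted p under 0.1 (1.92% against 3.74%). A gene could pass the filter through the group in which it is high, so these counts describe the 52 and not all 79 members.

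Most members had a negative log2 fold change. It was below 0 for 39 and above 0 for 13 of the 52, with a median of -0.64, where the median of all genes tested was -0.06. Over the 46 tested members whose mean was at least 1 TPM, the median was -0.61. The medians were -0.65 for MMP (13 of 17 below 0), -0.56 for ADAM (10 of 13), -0.80 for ADAMTS (13 of 17) and -0.33 for ADAMTSL genes (3 of 5). Without RUNX1 FB-KO replicate 3 they were -1.001, -0.77, -1.36 and -0.80, where that of the same 14237 genes was -0.04. These medians describe the members and carry no test.

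The knockout libraries differed in how many members lay below CTL. RUNX1 FB-KO replicate 1 lay below all 3 CTL values for 38 members and replicate 2 for 37, or 73.1% and 71.2%, where the shares of all genes were 43.1% and 44.1%. Replicate 3 lay below for 12 members and within the CTL range for 31, or 59.6%, where the share of all genes was 44%. Without replicate 3, edgeR called 33 members, 6 higher and 27 lower, or 63.5%, against 47.6% of all genes tested (25.1% higher and 22.5% lower). Whether edgeR with the filter on low counts called these 33 members depended on this 1 library. With all libraries, DESeq2 called 5 of them. Replicate 3 was left out because its values lay nearest to CTL, so more calls without it are no separate support.

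**Figure D2:**
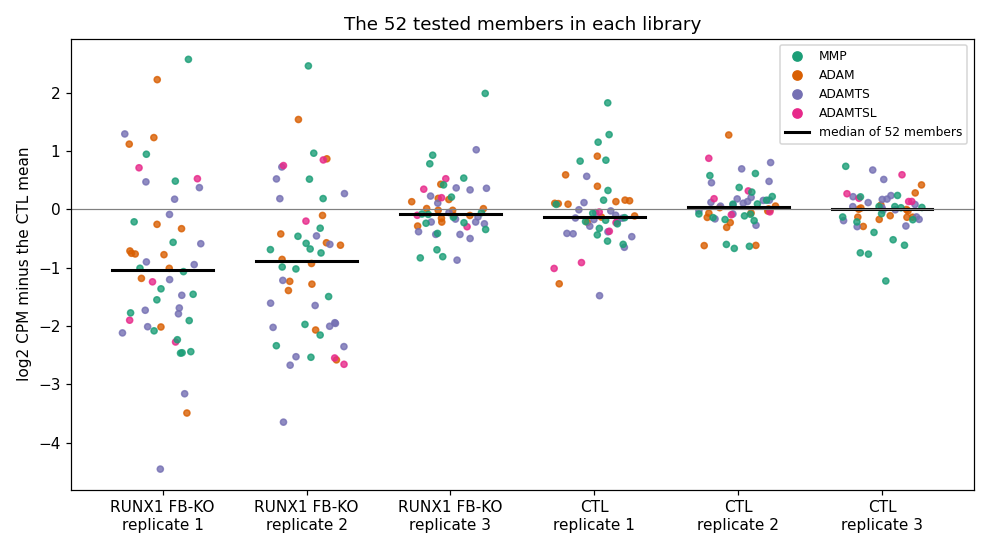
log2 CPM minus the mean of the CTL libraries for the 52 tested members (points, coloured by family) in each library, with the median as a bar. The medians are -1.04, -0.89 and -0.08 in RUNX1 FB-KO replicates 1, 2 and 3.

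**Figure D3:**
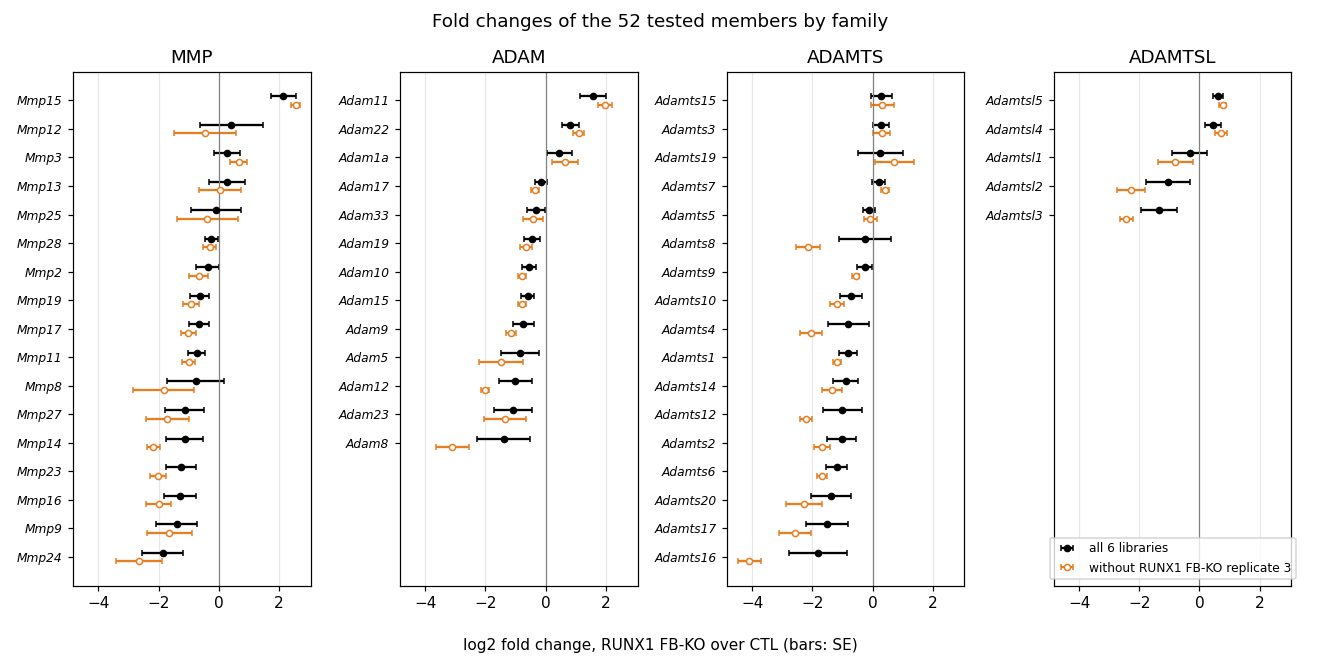
log2 fold change of RUNX1 FB-KO over CTL with its SE for each tested member, by family, with all 6 libraries (filled) and without RUNX1 FB-KO replicate 3 (open). Many open points lie farther from 0, as for Mmp14 at -2.17 against -1.14 with all libraries.

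Among the 4 transmembrane MMPs, 1 had a positive and 3 a negative log2 fold change. Mmp15 (MT2-MMP, a transmembrane enzyme like MT1-MMP; ENSMUSG00000031790) had the smallest p of all members. It was at 143.9, 133 and 46 CPM in RUNX1 FB-KO replicates 1, 2 and 3, against 26.9, 21.1 and 24.7 CPM in CTL replicates 1, 2 and 3. Every knockout library lay above every CTL library, and replicate 3 lay nearest to CTL. Its log2 fold change came to 2.15 (SE 0.42, edgeR adjusted p = 0.0682), and to 2.56 without RUNX1 FB-KO replicate 3. DESeq2 called it with all libraries (adjusted p = 4.56e-05), and so did edgeR without the filter on low counts (adjusted p = 0.0435).

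Mmp14 was at 106, 112 and 471 CPM in RUNX1 FB-KO replicates 1, 2 and 3, against 623, 461 and 429 CPM in CTL. Replicates 1 and 2 lay far below CTL, while replicate 3 lay within it, so the groups overlapped. This gave a log2 fold change of -1.14 (SE 0.60, edgeR adjusted p = 0.221), and of -2.17 without replicate 3. The transmembrane Mmp16 (MT3-MMP) was at 2.42, 1.17 and 5.46 CPM in RUNX1 FB-KO, against 6.14, 9.51 and 6.66 CPM in CTL, and Mmp24 (MT5-MMP, known mainly from the nervous system) at 0.20, 0.31 and 0.82 CPM in RUNX1 FB-KO, against 0.98, 1.38 and 2.64 CPM in CTL. For Mmp16 and Mmp24 every knockout value lay below every CTL value, at edgeR adjusted p of 0.153 and 0.125.

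The secreted Mmp2 overlapped between the groups. It was at 268, 248 and 460 CPM in RUNX1 FB-KO, against 272, 608 and 377 CPM in CTL, so that CTL replicate 1 was close to the lower knockout libraries. This came to a log2 fold change of -0.37 (SE 0.38, edgeR adjusted p = 0.506), and to 0.00 without CTL replicate 2. Mmp11 (stromelysin-3, which furin activates inside the cell) had -0.73 (SE 0.28), with 11.3, 11.2 and 19.3 CPM in RUNX1 FB-KO, against 18.1, 28 and 23.2 CPM in CTL. Mmp19, which cleaves basement membrane proteins, had -0.63 (SE 0.32). Mmp23 was at 29.0, 19.6 and 78.3 CPM in RUNX1 FB-KO, against 73.5, 115.9 and 115.5 CPM in CTL, with a log2 fold change of -1.26 (SE 0.51, edgeR adjusted p = 0.143). In both Mmp11 and Mmp23, replicate 3 lay above the lowest CTL library.

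Mmp12, the elastase of macrophages, varied more within groups than between them. It was at 4.65, 34.7 and 70.7 CPM in RUNX1 FB-KO replicates 1, 2 and 3, against 63.1, 11.7 and 7.51 CPM in CTL replicates 1, 2 and 3. Its log2 fold change of 0.42 (SE 1.05, edgeR adjusted p = 0.791) turned to -0.63 with sex as a covariate, and to -0.45 without RUNX1 FB-KO replicate 3. Each female library, that is RUNX1 FB-KO replicates 2 and 3 and CTL replicate 1, was above each male library, with 34.7, 70.7 and 63.1 CPM in females and 4.65, 11.7 and 7.51 CPM in males. The part of sex was not tested beyond this covariate, since the sexes are spread unevenly over the groups.

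Adam10 and Adam17 are the general sheddases of the cell surface. Adam10, which cleaves Notch receptors, was at 98.3, 84.7 and 145 CPM in RUNX1 FB-KO, against 173, 162 and 149.6 CPM in CTL. The groups did not overlap, but RUNX1 FB-KO replicate 3 lay next to the lowest CTL library. Adam10 had a log2 fold change of -0.56 (SE 0.23, edgeR adjusted p = 0.149). Adam17, which releases TNF and EGF receptor ligands, was at 63.2, 59.3 and 90.6 CPM in RUNX1 FB-KO, against 88.1, 78.6 and 72.5 CPM in CTL, with a log2 fold change of -0.17 (SE 0.20). RUNX1 FB-KO replicate 3 was the highest of all libraries for Adam17.

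Of the 13 tested ADAM genes 10 had negative log2 fold changes, and the others were Adam11, Adam22 and Adam1a (0.46, SE 0.41). Adam15 was at 89.4, 83.8 and 131 CPM in RUNX1 FB-KO, against 167, 138 and 152 CPM in CTL, and its groups did not overlap (log2 fold change -0.59, SE 0.22, edgeR adjusted p = 0.125). Adam9 and Adam19, which belong to the meltrins, had -0.74 (SE 0.34) and -0.44 (SE 0.26). Adam12, a meltrin of regenerating muscle and activated fibroblasts, split the knockout libraries. It was at 28.4, 27.4 and 116 CPM in RUNX1 FB-KO replicates 1, 2 and 3, against 123, 110.2 and 113 CPM in CTL, so replicate 3 was within CTL. Adam12 had a log2 fold change of -1.01 with all libraries (SE 0.56, edgeR adjusted p = 0.238) and -2.00 without replicate 3. Adam8, which leukocytes express, was at 7.46, 14.1 and 85.9 CPM in RUNX1 FB-KO, against 160.2, 55.3 and 69.4 CPM in CTL, and had -1.40 with all libraries and -3.10 without replicate 3.

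Adam11 and Adam22 had positive log2 fold changes. They are proteins of nerve cells that lack an active site and bind LGI proteins. Adam11 was at 26.7, 16.6 and 7.61 CPM in RUNX1 FB-KO replicates 1, 2 and 3, against 5.11, 5.85 and 5.92 CPM in CTL. Adam22 was at 23.2, 18.0 and 11.1 CPM in RUNX1 FB-KO, against 10.6, 10.0 and 8.95 CPM in CTL. In both genes the groups did not overlap in CPM and replicate 3 lay next to CTL. The log2 fold changes were 1.59 for Adam11 (SE 0.43, edgeR adjusted p = 0.0803) and 0.82 for Adam22 (SE 0.28, edgeR adjusted p = 0.114). With library size alone in place of TMM, which moves the median of all genes to -0.52, they were 1.03 and 0.30, and with an offset for effective length 1.38 and 0.70. On the TPM scale Adam22 was not higher, with 2.40 ± 0.37 TPM in RUNX1 FB-KO and 2.52 ± 0.82 TPM in CTL (SD, n = 3 each). Adam11 overlapped in TPM, with 4.67, 3.16 and 2.34 TPM in RUNX1 FB-KO, against 1.78, 2.06 and 3.25 TPM in CTL. Adam23, a relative of both, had -1.09 (SE 0.63), with 2.98 CPM in CTL replicate 1 beside 18.0 CPM in CTL replicate 2.

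**Figure D4:**
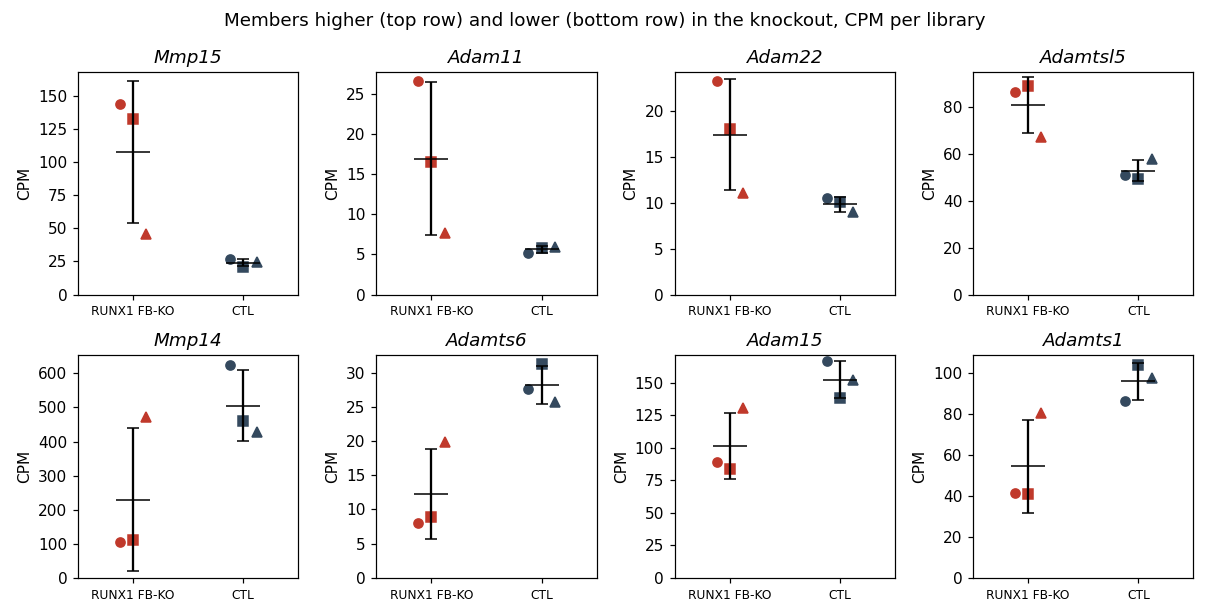
CPM in each library for 4 members with higher and 4 with lower means in RUNX1 FB-KO; circles, squares and triangles are replicates 1, 2 and 3, and bars are the mean and SD (n = 3). Replicate 3 lies between the other knockout libraries and CTL for all panels except Mmp14, where it lies within CTL at 471 CPM.

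Of the ADAMTS enzymes, Adamts6 (ENSMUSG00000046169), a protease linked to microfibrils and required for heart development in mice, had the smallest p among members that were lower. It was at 8.05, 8.90 and 19.9 CPM in RUNX1 FB-KO replicates 1, 2 and 3, against 27.6, 31.3 and 25.7 CPM in CTL. All knockout values lay below CTL. Its log2 fold change came to -1.19 (SE 0.36, edgeR adjusted p = 0.0915; DESeq2 adjusted p = 0.0203). Adamts10, its close relative, was at 65.2, 39.9 and 117 CPM in RUNX1 FB-KO, against 108, 127 and 132 CPM in CTL and overlapped CTL (log2 fold change -0.72, SE 0.37).

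The 7 proteoglycanases had a median of -0.27, and 1 of them was above 0. Without RUNX1 FB-KO replicate 3 the median was -1.17, and edgeR called 5 of them lower and 0 higher. In that fit it called 22.5% of all genes lower and 25.1% higher, and 51.9% of all members lower. With all 6 libraries edgeR called 0 of the 7. Adamts1, which cleaves versican and aggrecan, was at 41.4, 41.1 and 80.6 CPM in RUNX1 FB-KO, against 86.1, 104 and 97.5 CPM in CTL, with no overlap (log2 fold change -0.82, SE 0.29, edgeR adjusted p = 0.116). Adamts5, its neighbour on chromosome 16 and the main aggrecanase of mouse cartilage, showed no such pattern, with 83.9, 54.2 and 68.0 CPM in RUNX1 FB-KO, against 67.1, 73.0 and 83.6 CPM in CTL (log2 fold change -0.12, SE 0.20). A p of this size (edgeR adjusted p = 0.683) does not show that the groups were alike. Adamts9, which also cleaves versican, had -0.27 (SE 0.25), with replicate 3 above CTL at 51 CPM. Adamts4 was at 4.39, 2.81 and 19.0 CPM in RUNX1 FB-KO, against 22, 12.2 and 12 CPM in CTL, and Adamts8 at 0.79, 0.86 and 7.76 CPM in RUNX1 FB-KO, against 4.09, 3.97 and 3.28 CPM in CTL. For Adamts8 replicate 3 was above every CTL library while replicates 1 and 2 were below every one.

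The procollagen N-proteinases were led by Adamts2. It was at 214, 154 and 528 CPM in RUNX1 FB-KO, against 444, 672 and 699 CPM in CTL, with replicate 3 within CTL (log2 fold change -1.02, SE 0.48, edgeR adjusted p = 0.183; -1.68 without replicate 3). Adamts14 was at 7.53, 3.51 and 12.6 CPM in RUNX1 FB-KO, against 14.1, 13.0 and 17 CPM in CTL without overlap, whereas Adamts3 had a log2 fold change of 0.28. Of the enzymes that cleave the cartilage matrix protein COMP, Adamts12 had -1.01 (SE 0.65) and Adamts7 0.20 (SE 0.20). Adamts12 was at 28.2, 19.7 and 123 CPM in RUNX1 FB-KO, against 98.7, 127 and 118 CPM in CTL, so that replicate 3 again lay within CTL. Adamts16 was at 0.98, 1.80 and 17.6 CPM in RUNX1 FB-KO, against 19.4, 32.6 and 21.1 CPM in CTL, the most negative log2 fold change among ADAMTS genes with all libraries (-1.82) and without replicate 3 (-4.10).

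Of the 5 ADAMTSL genes, 3 had negative and 2 positive log2 fold changes. Adamtsl2, which binds fibrillin and a latent TGF-beta binding protein, was at 48.3, 30.8 and 207 CPM in RUNX1 FB-KO, against 95.8, 225 and 272 CPM in CTL (log2 fold change -1.05, SE 0.74). Adamtsl3 was at 12.2, 9.37 and 48.5 CPM in RUNX1 FB-KO, against 50.9, 57.9 and 71.9 CPM in CTL, with every knockout value below CTL (log2 fold change -1.36, SE 0.60, edgeR adjusted p = 0.165). Adamtsl5 was at 86.3, 88.6 and 66.9 CPM in RUNX1 FB-KO, against 51, 49.3 and 57.8 CPM in CTL, with every knockout value above CTL (log2 fold change 0.61, SE 0.16, edgeR adjusted p = 0.0786). Adamtsl4, which promotes fibrillin microfibrils in the eye, was at 70.3, 87.8 and 45.4 CPM in RUNX1 FB-KO, against 37.6, 55.4 and 55.6 CPM in CTL (log2 fold change 0.45, SE 0.28). The size of the higher values depended on the scaling: with library size alone Adamtsl5 and Adamtsl4 had 0.12 and -0.08, where all genes had a median of -0.52, and with an offset for effective length Adamtsl5 had 0.28. On the TPM scale Adamtsl5 had a lower mean, with 38.5 ± 10.2 TPM in RUNX1 FB-KO and 52 ± 8.24 TPM in CTL (SD, n = 3 each). So had Adamtsl4, with 20.4 ± 2.13 TPM in RUNX1 FB-KO and 25.6 ± 5.26 TPM in CTL (SD, n = 3 each). In TPM the groups overlapped for both. Adamtsl5 was at 50.3 TPM in RUNX1 FB-KO replicate 3 and 42.8 TPM in CTL replicate 1. Adamtsl4 was at 22.2 TPM in RUNX1 FB-KO replicate 2 and 19.8 TPM in CTL replicate 1. For both, which group had the higher mean depended on the scale.

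Markers of the cell types in the tissue differed between the groups as well. All 10 cardiomyocyte markers had positive log2 fold changes (median 2.95). All 8 fibroblast, 6 activated fibroblast and 8 macrophage markers had negative ones (medians -0.61, -1.28 and -0.90). Those of the fibroblast markers ran from -1.30 (Col1a1) to -0.04 (Dcn). The endothelial markers had a median of -0.07, with 5 below 0 and Kdr at 1.41. The mural markers had a median of 0.17, with 3 above and 3 below 0, from -0.62 (Notch3) to 2.17 (Abcc9). The tested neutrophil, lymphocyte and mast cell markers were all below 0 (medians -0.88, -2.23 and -0.41). The lymphocyte markers summed to at most 29.3 CPM in any library. RUNX1 FB-KO replicate 3 was the knockout library nearest to CTL in the summed cardiomyocyte, fibroblast, activated fibroblast and macrophage markers. The part of these cell types in the values of the members was not tested.

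The make-up of the summed MMP transcripts differed between libraries. Mmp15 held 13.3%, 12% and 1.87% of the summed MMP TPM in RUNX1 FB-KO replicates 1, 2 and 3, against 1.07%, 0.73% and 1.10% in CTL. Mmp14 held 20.2%, 20.4% and 37.7% in RUNX1 FB-KO, against 50.1%, 32.5% and 37.8% in CTL, and Mmp2 41.8%, 39.4% and 31.2% in RUNX1 FB-KO, against 19.1%, 39.0% and 29.1% in CTL. Mmp14 and Mmp2 together held 59.8% to 68.9% in RUNX1 FB-KO, against 66.9% to 71.5% in CTL. Mmp14 ranked above Mmp2 in CTL replicates 1 and 3 and in RUNX1 FB-KO replicate 3, and below it in the other libraries. Within the ADAM family Adam15 held nearly the same share in every library, with 29.7% to 30.5% in RUNX1 FB-KO and 28.6% to 35.6% in CTL. Adamtsl5 held 50.1%, 47.6% and 24.9% of the summed ADAMTSL TPM in RUNX1 FB-KO, against 29.2%, 22.1% and 17.5% in CTL.

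**Figure D5:**
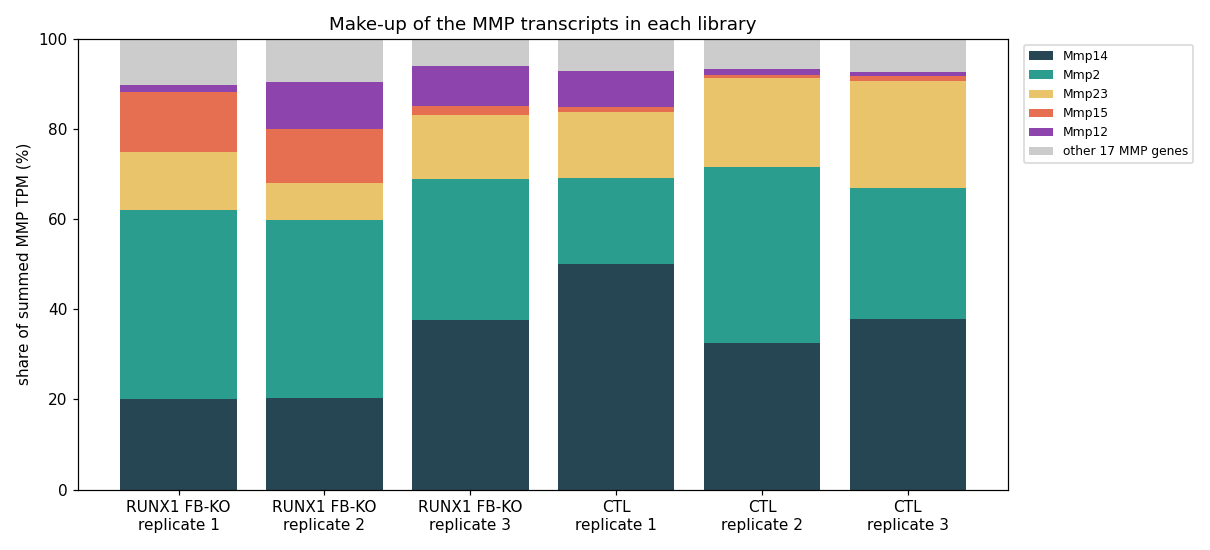
Share of the summed TPM of the 22 MMP genes held by Mmp14, Mmp2, Mmp23, Mmp15, Mmp12 and the others in each library, with RUNX1 FB-KO left of CTL. The Mmp15 share is 13.3% and 12% in RUNX1 FB-KO replicates 1 and 2 and 1.87% or less in the other 4 libraries.

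The CTL libraries also differed among themselves. In CTL replicate 1, the female control, 4 members were over 2 times their level in both other CTL libraries, namely Mmp8, Mmp9, Mmp12 and Adam8, which are known from neutrophils and macrophages. Mmp9 was at 11.7 CPM in CTL replicate 1, against 3.30 and 3.58 CPM in CTL replicates 2 and 3, and Mmp8 at 3.07 CPM against 0.71 and 0.75 CPM. The macrophage markers summed to 1917 CPM in this library, against 1396 and 1498 CPM, and the neutrophil markers to 49.2 CPM, against 30.5 and 26.2 CPM. Another 4 members, Adam23, Adamts19, Adamtsl1 and Adamtsl2, were under 0.5 times their level in both other CTL libraries. With 1 such library, sex and any other property of that library cannot be told apart.

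Reads were also given to single transcripts. Mmp14, Mmp15, Adam9, Adam10, Adam12, Adam19, Adamts1, Adamts2 and Adamts12 had at least 98% of their reads in 1 protein-coding transcript in every library. The choice was less plain for Adamtsl5, where a retained-intron transcript held 51%, 67.0% and 53.4% of the reads in RUNX1 FB-KO, against 60.8%, 51.7% and 46.1% in CTL. Transcripts marked for nonsense-mediated decay (breakdown of faulty RNA) also held large shares. Group means were 39.5% in RUNX1 FB-KO and 46.7% in CTL for Adamts6-207, and 46.7% and 51.2% for Mmp12-204. For Adamts10-207 they were 32.6% and 31.2%. In Adam22, the transcript Adam22-206 held 70.7%, 21.3% and 31.0% in RUNX1 FB-KO, against 0%, 11.2% and 0% in CTL. In Adamtsl4, the transcript Adamtsl4-202 held 18.1%, 27.9% and 16.7% in RUNX1 FB-KO, against 3.82%, 10.5% and 15.3% in CTL, with no overlap. In Mmp23, the main transcript Mmp23-201 held 88.1%, 89.7% and 88.4% in RUNX1 FB-KO, against 82.5%, 83.6% and 84.9% in CTL, and a retained-intron transcript correspondingly less. These shares are Salmon's division of reads between transcripts that share sequence, were not tested, and the transcripts were chosen after their values were seen. Some members share exon sequence with a gene on the opposite strand, and the sources used here do not state whether the libraries kept strand. This overlap covers 22.3% of the exon bases of Mmp19 (with Tmem198b), 13.6% of Mmp24 (with BC029722) and 5.58% of Mmp11 (with Chchd10), so their values are uncertain. Adam1a shares 63.7% of its exon bases with Gm42878 and 24% with Mapkapk5 on the same strand.

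The genes that control or surround these enzymes were described from lists. Of the 12 tested inhibitors 9 had negative log2 fold changes, and the median was -0.56. Timp4, the tissue inhibitor of metalloproteinases most tied to the heart, was at 57.0, 79.9 and 12.2 CPM in RUNX1 FB-KO, against 4.58, 5.09 and 5.52 CPM in CTL (log2 fold change 3.29, SE 0.64, edgeR adjusted p = 0.0682), while Timp1, Timp2 and Timp3 had -1.28, -0.84 and -0.01. Wfdc1 had 1.22 and the broad protease inhibitor A2m -1.94, where A2m was under 3 CPM in every library. Timp1, Timp2 and Timp3 were named after their values were seen. Of 9 tested activators 7 were negative (median -0.33), with Plau (urokinase) at -0.995, Ctsb (cathepsin B) at -0.96 and the convertase Pcsk5 at -0.82. Of 14 tested ADAM partners 9 were negative (median -0.24). Tspan14 and Tspan17, tetraspanins that carry ADAM10 to the surface, had -0.91 and -0.75, and Pacsin3 had 0.94. Of 11 other tested metalloproteinases or relatives 7 were negative, with Ece1 at -0.45, Mme (neprilysin) at 1.35 and Papln at 1.46. Of 32 tested substrates 30 were negative, with a median of -0.96. Il6ra, Tnfrsf1a and Mertk, membrane receptors that ADAM proteases shed, had -0.98, -0.69 and -1.14, each without overlap between the groups. No gene of these lists passed the edgeR threshold over all genes. DESeq2 called 2 of 12 inhibitors higher, 3 of 14 ADAM partners higher and 3 lower, 1 of 11 relatives higher and 1 lower, and 6 of 32 substrates lower, where it called 15.6% of all genes higher and 5.9% lower.

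RUNX proteins bind the letters TGTGGT or TGCGGT, and AP-1 factors, known regulators of several MMP genes, bind TGANTCA. RefSeq (GRCm38.p6) gave 53 promoter sequences for 48 of the 79 members, each running from 250 bases before the start site to 50 after it. TGTGGT was found on either strand in 12 of them, or 22.6%, against 16.8% of 32851 promoters of all genes. TGCGGT was found in 5, or 9.43%, against 6.45%. TGANTCA, which reads the same on both strands, was found in 12, or 22.6%, against 7.81%. By family, TGANTCA was in 7 of 20 MMP promoters, 5 of 19 ADAM promoters and 0 of 10 ADAMTS promoters, and TGTGGT in 6, 6 and 0. Of 30 matches in the promoters of members, 0 pairs overlapped. Over the 24 promoters of the named members TGANTCA was in 2, or 8.33%, TGTGGT in 4, or 16.7%, and TGCGGT in 4, or 16.7%. A match is a description of the letters only.

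Shown are the promoters of Mmp14 and Mmp23, the most abundant members with a TGTGGT match. Also shown are those of Adam15, whose groups did not overlap, and of Mmp15, the member with the smallest p. All of them hold a RUNX motif, unlike most promoters of the named members, so they do not stand for the members as a set. The promoters of Adam10, Adam17, Adamts1, Adamts12, Adamtsl2 and Adamtsl5 hold no match to either RUNX motif. Nor does the other Mmp23 entry. Capitals mark RUNX motif letters (ACCACA and ACCGCA are the same motifs on the other strand). The promoters shown lie at chr14:54431348-54431647 (plus strand, Mmp14), chr4:155653335-155653634 (minus strand, the upstream of 2 entries for Mmp23), chr3:89349979-89350278 (minus strand, Adam15) and chr8:95352046-95352345 (plus strand, Mmp15).
Mmp14: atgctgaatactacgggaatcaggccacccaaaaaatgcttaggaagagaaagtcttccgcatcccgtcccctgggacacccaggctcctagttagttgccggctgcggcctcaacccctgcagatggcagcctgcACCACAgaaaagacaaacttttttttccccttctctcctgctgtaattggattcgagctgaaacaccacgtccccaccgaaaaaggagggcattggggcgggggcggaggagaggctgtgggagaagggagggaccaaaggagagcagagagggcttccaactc
Mmp23: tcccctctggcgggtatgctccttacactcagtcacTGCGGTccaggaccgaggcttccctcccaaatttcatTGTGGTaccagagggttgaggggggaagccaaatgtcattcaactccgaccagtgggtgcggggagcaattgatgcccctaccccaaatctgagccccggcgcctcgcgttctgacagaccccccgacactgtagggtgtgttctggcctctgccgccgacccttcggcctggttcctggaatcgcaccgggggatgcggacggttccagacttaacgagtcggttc
Adam15: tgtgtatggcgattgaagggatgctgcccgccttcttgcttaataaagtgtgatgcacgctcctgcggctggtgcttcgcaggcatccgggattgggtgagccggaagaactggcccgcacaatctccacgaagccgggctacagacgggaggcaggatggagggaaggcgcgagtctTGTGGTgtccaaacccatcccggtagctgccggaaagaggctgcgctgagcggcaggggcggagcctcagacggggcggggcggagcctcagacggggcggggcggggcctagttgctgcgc
Mmp15: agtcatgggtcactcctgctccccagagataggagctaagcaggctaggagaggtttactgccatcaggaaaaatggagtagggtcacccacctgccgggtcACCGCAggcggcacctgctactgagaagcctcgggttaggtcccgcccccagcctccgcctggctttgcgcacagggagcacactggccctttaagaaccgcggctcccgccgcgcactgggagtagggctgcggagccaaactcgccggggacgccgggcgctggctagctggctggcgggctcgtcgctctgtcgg
The first base of the motif lies 114 bases before the start site in Mmp14, 177 (TGTGGT) and 214 (TGCGGT) in Mmp23, 72 in Adam15 and 148 in Mmp15. Mmp13 holds both a TGTGGT match, 118 bases before its start site, and a TGANTCA match 35 bases before it, and was at 1.31, 0.70 and 1.63 CPM in RUNX1 FB-KO, against 1.69, 0.85 and 0.50 CPM in CTL.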

How the data were processed

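Ventricular RNA was sequenced in 6 libraries, 3 a group. Per the submitters' processing notes, Salmon 1.5.2 and DESeq2 1.44.0 were used with mm10 (GRCm38). Their annotation release is not stated in the sources used here. Deposited tables, 1 per library, give estimated counts, TPM and effective lengths per transcript, as the authors' Salmon run made them per the file headers. TPM values were deposited after division by effective length and by the library total.

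Estimated counts were summed per gene with GENCODE M21 and rounded. Of 116546 transcripts, 115977 matched, and unmatched ones held at most 0.102% of reads. Genes passing filterByExpr (14237) were scaled by TMM and tested with edgeR 4.0.16 (quasi-likelihood, Benjamini-Hochberg over all genes, threshold 0.05); alternatives used limma 3.58.1 and DESeq2 1.42.0, other scalings, filters, covariates, an effective length offset and leaving out each library. The fit was tested on simulated data, and no result of that is given here. Separation of 3 against 3 libraries allows an exact two-sided p of 0.1 at the smallest.

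Members and lists were chosen with earlier results of these data known. Named members were the 24 with the highest mean TPM and, per direction, the 5 of lowest p, and of each related list the 3 with the smallest p. Other members were named after their values were seen, to complete a group.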

Additional observations from a re-analysis of the deposited data

How the results depend on the processing

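With all 6 libraries, 0 members passed an adjusted p under 0.05 in edgeR. The count was 4 at an adjusted p under 0.1, 1 with no filter and 5 with DESeq2 (16.2%, 4.4% and 21.5% of all genes). It was 36, or 69.2%, against 58.9% of all genes, in limma-voom with sample quality weights, which gave RUNX1 FB-KO replicate 3 a weight of 0.145. Leaving out 1 library gave 0 to 33, and 33 only without RUNX1 FB-KO replicate 3 (63.5%, against 47.6% of all genes). At an unadjusted p under 0.05 there were 12. There were 20 in limma-voom (38.5%, against 33.5% of all genes), 39 with sample quality weights (75%, against 63.8%) and 4 to 36 with 1 library left out. That was 36 without RUNX1 FB-KO replicate 3 (69.2%, against 54.7%), 4 without RUNX1 FB-KO replicate 1, RUNX1 FB-KO replicate 2 or CTL replicate 3 (7.69%, against 16.6%, 18.1% and 18.1%) and 6 without CTL replicate 2 (11.5%, against 23.8%). The labels do not state whether replicate numbers pair the libraries, and this was not tested. Deviations of same-numbered libraries correlated at -0.051, 0.113 and 0.081, and 3 libraries a group are too few to decide it from these values. The replicate block gave 0 adjusted and 22 unadjusted calls (42.3%, against 30.9% of all genes). Groups did not overlap for 14 members, for 24 with library size alone (46.2%, against 50.6% of all genes) and for 14 to 39 with 1 library left out, with 39 without RUNX1 FB-KO replicate 3 (75%, against 68.5%) and 24 without CTL replicate 1 (46.2%, against 50%). The median log2 fold change was -1.13 for MMP and -1.14 for ADAMTSL genes with sample quality weights, and -0.96 for ADAM genes with library size alone, which moves the median of all genes to -0.52. With 1 library left out, it was -1.36 to -0.42 for ADAMTS genes and -0.80 to 0.20 for ADAMTSL genes, turning to 0.022 without RUNX1 FB-KO replicate 1 and to 0.20 without CTL replicate 2. Of 504 values for 28 named members, 7 in 4 genes changed sign. These were Mmp12 (-0.63 with sex as a covariate, -0.475 with sample quality weights, and -0.45 to 1.94 with 1 library left out), Adamtsl4 (-0.075 with library size alone), Mmp2 (-0.66 to 0.0018) and Adamts5 (-0.28 to 0.0285). Another 55 passed the threshold under an alternative. The cause was not tested. The 27 members that were not tested had at most 14 reads in any library, too few to compare.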
